A study of Mus musculus with 4 samples.

Results

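The nuclear genes for subunits of the mitochondrial respiratory chain were examined in the mammary gland of young mice with and without Mt2-mmp, a membrane-anchored matrix metalloproteinase whose gene symbol is Mmp15. A gene was taken as a member by its single annotated symbol: Ndufa, Ndufb, Ndufc, Ndufs or Ndufv genes for complex I (not the Ndufaf assembly factors), Sdha to Sdhd for complex II, Uqcr genes for complex III, Cox4 to Cox8 genes for complex IV and Atp5 genes for complex V. Cox7a1 and Cox8b, both abundant in thermogenic fat, were left out by the same rule. This gave 78 members among 17097 measured genes: 35 for complex I, 4 for complex II, 7 for complex III, 15 for complex IV and 17 for complex V. The subunits encoded in mitochondrial DNA, and subunits whose symbol no probe set carried, were not analysed here.

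Complexes I to IV pass electrons from NADH and succinate to oxygen and, except for complex II, pump protons across the inner mitochondrial membrane, and complex V, the ATP synthase, lets protons return to make ATP. In brown and beige fat the uncoupling protein Ucp1 gives protons another way back, so that the chain produces heat. Each complex holds subunits from several nuclear genes spread over the genome, and some subunits have paralogs used mainly in muscle, lung or testis.

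Total RNA from intact inguinal mammary glands, the epithelial tree together with its fat pad, was hybridized to 4 Affymetrix perfect-match arrays. The mice were 10 days old and congenic on C57Bl/6J: 2 arrays came from Mt2-mmp(-/-) mice, which lack the gene in every tissue, and 2 from Mt2-mmp(+/+) littermates. The labels call the arrays of a genotype biological replicates, without saying whether one array holds RNA of 1 mouse or several, or which part of the gene was removed, and they give no sex. If several arrays shared animals, the p-values would measure technical spread only. The array medians lay between 5.19 and 5.21 on the log2 scale and the arrays correlated at 0.995 to 0.997 across probe sets. Mmp15 itself was not analysed here, and the labels' genotypes are taken as given. Epithelial signal was present in every array. The log2 value of Epcam, an epithelial adhesion molecule, was 9.21 in either knockout, 9.54 in wild type 1 and 9.51 in wild type 2. How much of it came from mammary epithelium was not tested. In one respect the arrays stood apart from their genotype. Averaged over 14 measured epidermis and hair follicle genes, knockout 1 reached a log2 value of 7.50 and wild type 2 reached 7.39, whereas knockout 2 had 4.59 and wild type 1 had 4.69. Array values below are given in a fixed order, knockout 1 and knockout 2 first, then wild type 1 and wild type 2, on the log2 scale.

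The respiratory chain genes lay slightly higher in knockouts, and knockout 1 carried nearly all of that shift. Of 78 members 66 had a log2 fold change (knockout minus wild type) above 0, where 48.8% of all genes did, and the median was 0.066 against -0.0022 for all genes. The spread of the array medians within a genotype was 0.055 (SD, 2 arrays per genotype), about as large as the shift. Genotypes were separated, with no overlap of array values, in 36 of 78 members, against 37.6% of all genes. The knockouts were higher in 31 of the 78, against 18.2% of all genes, and lower in 5 of the 78, against 19.4%. No member passed the threshold, an adjusted p of 0.05 by limma with Benjamini-Hochberg adjustment over all genes, which 0.00585% of genes (1 gene, Gadd45gip1, no member) passed. At an unadjusted p under 0.05, which 7.01% of all genes reached by limma, stood 1 member, Atp5g1. It was lower in knockouts, as 3.38% of all genes were, and 0 members were higher, where 3.63% of all genes were. The median 95% interval of a member, unadjusted, reached 0.19 on either side of its fold change. Differences below that size were mostly not detectable with 2 arrays per genotype. The adjusted threshold asked for more: Atp5g1, at -0.32, had a limma adjusted p of 0.693. In whole tissue, more mitochondria-rich cells and more such RNA per cell cannot be told apart.

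**Figure D1:**
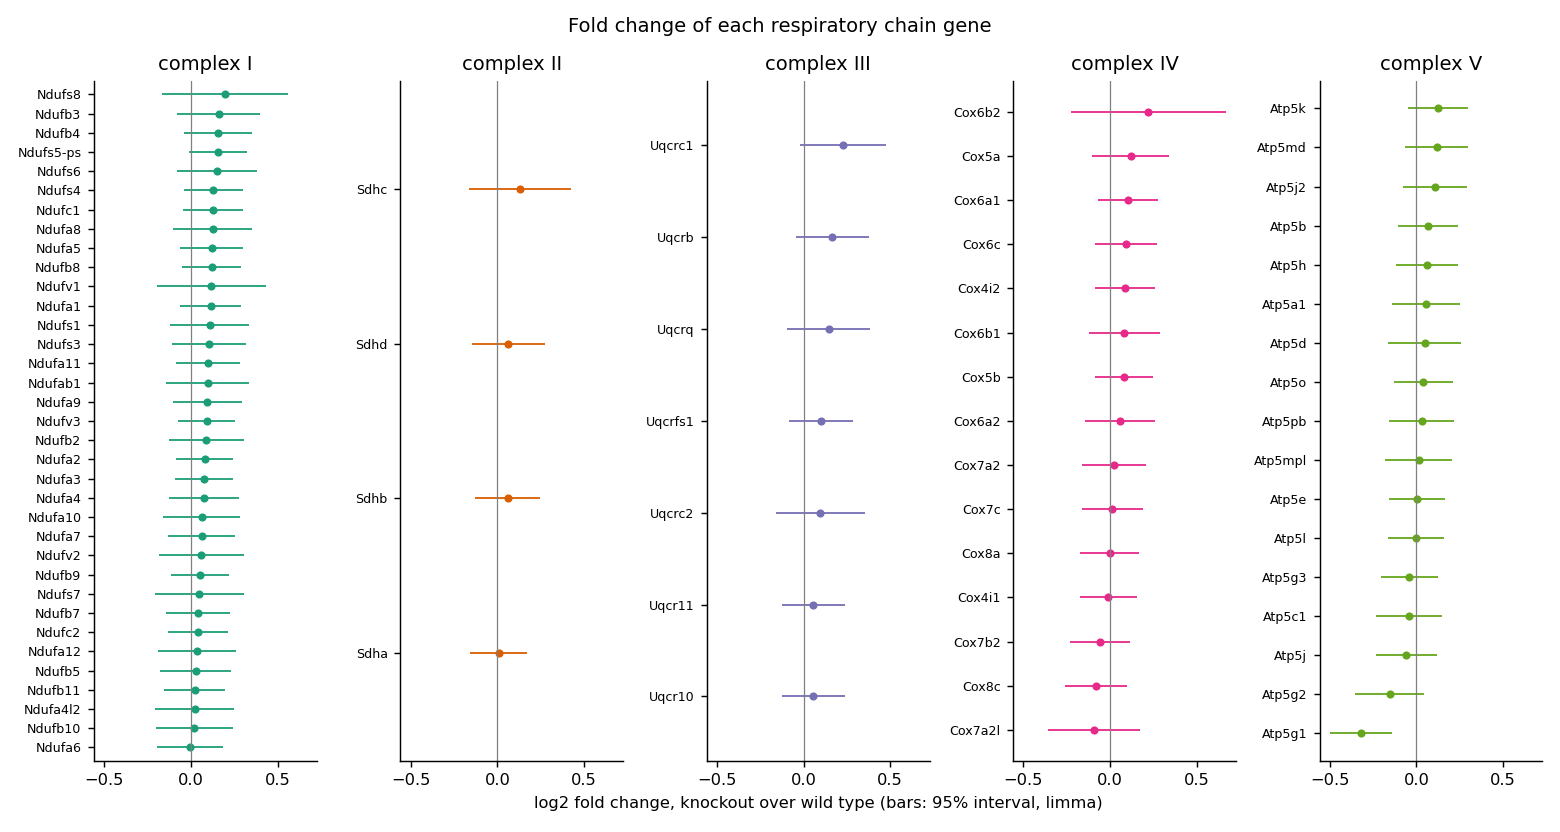
Log2 fold change, knockout over wild type, of each of the 78 members by complex (x axis, log2 units; points are estimates and bars 95% intervals from limma, n = 2 arrays per genotype; each row is 1 gene). All members of complexes II and III and 34 of 35 of complex I lie above 0, and the interval of Atp5g1, in complex V, is the only one that leaves out 0.

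Read by array, knockout 1 held the highest of the 4 values in 60 of 78 members, against 24.8% of all genes. Wild type 2 was highest in 10 members, wild type 1 in 5 and knockout 2 in 3. For each gene the mean of the 4 arrays was subtracted from each array's log2 value, and the median of that deviation over the members was 0.087 in knockout 1, -0.021 in knockout 2, -0.039 in wild type 1 and -0.027 in wild type 2. Knockout 2 therefore lay near the wild types. The median member was 0.13 higher in knockout 1 than in wild type 1 and 0.11 higher than in wild type 2. The same medians for knockout 2 were 0.018 against wild type 1 and 0.0046 against wild type 2. The gap between both knockouts, with a median of 0.0996 and knockout 1 above knockout 2 in 68 members (47.6% of all genes), exceeded the one between the wild types, whose median was -0.0079 with wild type 1 above wild type 2 in 34 members. Without knockout 1 the median fold change of the members was 0.0060, with 45 of 78 above 0, where 49.3% of all genes were, and without knockout 2 it was 0.12, with 67 above 0. Among the 558 genes with a mean log2 value above 11, many members included, the median deviation of knockout 1 was -0.0096 and the median fold change 0.0012. In wild type 2, whose epidermis and hair follicle signal was nearly that of knockout 1, the members' median deviation was -0.027, as given above. Whether signal level or epidermis and hair follicle content bears on the values of knockout 1 was not tested.

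**Figure D2:**
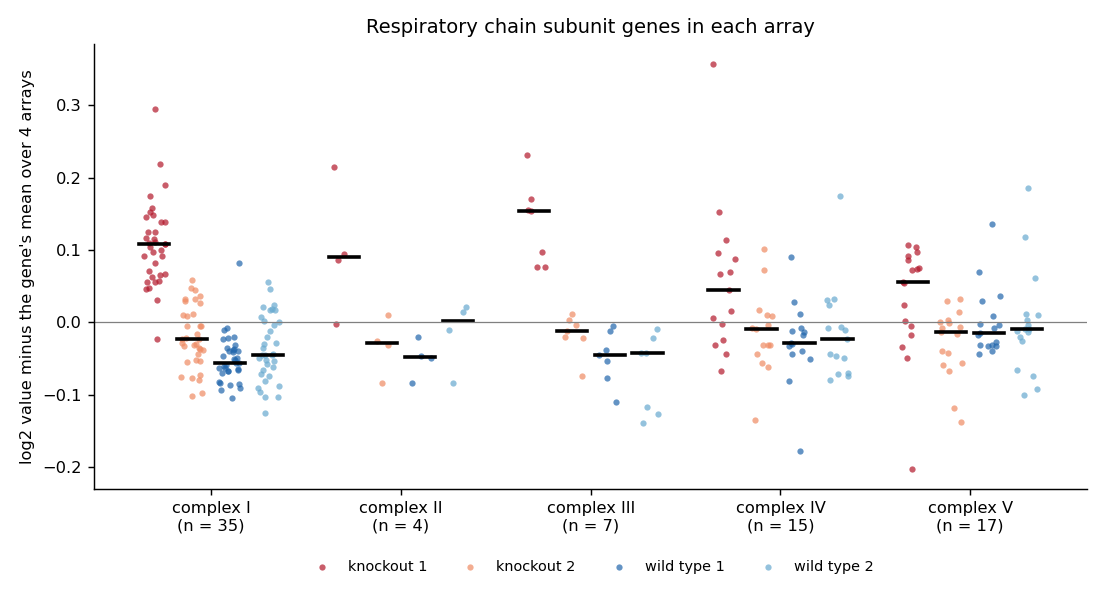
Deviation of each member's log2 value from its own mean over the 4 arrays (y axis, log2 units), by complex and array; each point is 1 gene and black bars are medians over genes. Knockout 1 has the highest median in every complex, from 0.044 in complex IV to 0.154 in complex III, while the other arrays have medians between -0.056 and 0.0015.

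Complex I, which takes electrons from NADH, had a median fold change of 0.091, with 34 of 35 members above 0 (48.8% of all genes). In 18 of its members both knockouts exceeded both wild types, where 18.2% of all genes did so. Its core subunits, most of which hold the flavin or the iron-sulphur clusters that carry the electrons, were all above 0 (6 measured, median 0.107, range 0.049 to 0.196), but without knockout 1 their median was -0.022. Ndufs8, an iron-sulphur subunit, showed this most plainly. Its log2 values were 11.79 and 11.40 against 11.43 and 11.37. Only knockout 1 was high, and knockout 2 lay between the wild types; the fold change of 0.20 (SE 0.141, limma adjusted p = 0.805) became -0.00042 without knockout 1. Ndufv1, which binds the flavin, had 11.93 and 11.61 against 11.69 and 11.61: knockout 1 was again high alone. The other 29 members counted under complex I by their symbol had a median of 0.089, and 0.031 without knockout 1.

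Some accessory subunits were higher in both knockouts. Ndufb4, a subunit of the membrane arm, had log2 values of 11.83 and 11.69 against 11.60 and 11.61, a fold change of 0.16 (SE 0.076, limma adjusted p = 0.745). A second bright probe set of Ndufb4 gave 0.16 as well, and a dim one gave 0.0056. Ndufs4, whose loss causes fatal encephalopathy in mice, had 10.47 and 10.40 against 10.31 and 10.30 (0.13, SE 0.066, limma adjusted p = 0.750). Its other probe sets, with mean log2 values of 6.24 and 4.20, went the other way, at -0.047 and -0.079. Over the alternatives tried Ndufs4 ran from 0.0010 to 0.16. By the brightest probe set of both genes the knockouts lay above the wild types without overlap, and without knockout 1 the differences were 0.089 and 0.097. The probe sets annotated to Ndufs5-ps, by name a pseudogene of the subunit gene Ndufs5, had 11.81 and 11.75 against 11.64 and 11.62 (0.16, SE 0.066, limma adjusted p = 0.729), and whether they also detect Ndufs5 was not tested. At the other end, Ndufa6 had 11.68 and 11.61 against 11.60 and 11.71, with overlapping groups and a fold change of -0.0070. The complex I genes of highest signal, Ndufab1, the mitochondrial acyl carrier protein, and Ndufa4, which later work places in complex IV, followed knockout 1. Ndufab1 had 12.24 and 12.04 against 12.01 and 12.08 (0.096), and Ndufa4 had 12.18 and 12.03 against 12.05 and 12.02 (0.073). Without knockout 1 the differences were -0.0047 and -0.00018. Ndufa4l2, a paralog known as a hypoxia-induced gene, had 7.05 and 7.12 against 7.15 and 6.97, with no separation of the genotypes.

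Complex II, succinate dehydrogenase, links the chain to the citric acid cycle. Each of the 4 fold changes was positive (median 0.062), yet in none did the genotypes separate, where 37.6% of all genes had no overlap. Sdhc, a membrane anchor, had 11.11 and 10.81 against 10.85 and 10.81 (0.13, SE 0.114, limma adjusted p = 0.849). As in Ndufs8, knockout 1 stood alone. Sdhd, the other anchor, had 9.96 and 9.84 against 9.79 and 9.89, and Sdhb, the iron-sulphur subunit, 12.19 and 12.08 against 12.06 and 12.10. Sdha, the flavoprotein, varied least, at 11.86 and 11.88 against 11.85 and 11.88, a fold change of 0.0069 with a 95% interval of -0.16 to 0.17. A dimmer but still bright probe set of Sdha gave 0.150.

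Complex III, which hands electrons to cytochrome c, had the highest median of the complexes, 0.099, with 7 of 7 members above 0. All 7 were highest in knockout 1. Uqcrc1, a core protein of the complex, had the largest positive fold change of all members: 11.47 and 11.23 against 11.13 and 11.12, a difference of 0.23 (SE 0.097, 95% interval -0.024 to 0.48, limma adjusted p = 0.729). Both knockouts were above both wild types, and without knockout 1 the difference was 0.110. Uqcrb, a small subunit, had 11.88 and 11.73 against 11.68 and 11.60 (0.16, limma adjusted p = 0.747), and Uqcrq 11.94 and 11.77 against 11.78 and 11.64 (0.14, limma adjusted p = 0.788). The other core protein, Uqcrc2, followed knockout 1 only, with 12.03 and 11.78 against 11.80 and 11.81. The Rieske iron-sulphur protein Uqcrfs1 had a fold change of 0.099. The small subunits Uqcr10 (11.65 and 11.55 against 11.53 and 11.56) and Uqcr11 (12.04 and 11.94 against 11.95 and 11.92) both differed by 0.055, with overlapping groups. Without knockout 1 complex III had a median of 0.052, above those of the other complexes, whose medians then ran from -0.012 to 0.021; the difference between complexes was not tested.

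In complex IV, cytochrome c oxidase, 10 of 15 fold changes were positive; the median was 0.058, and -0.010 without knockout 1. Cox6a1, the widely expressed form of subunit VIa, was higher in both knockouts: 13.005 and 12.93 against 12.88 and 12.85 (0.105, SE 0.068, limma adjusted p = 0.788). Cox5a, a matrix-side subunit, had 12.55 and 12.37 against 12.36 and 12.32 (0.12, limma adjusted p = 0.805), and its other probe sets gave 0.13 and 0.15. Cox4i1, the common form of subunit IV, was nearly flat: 12.74 and 12.73 against 12.72 and 12.76, a fold change of -0.011 with a 95% interval of -0.17 to 0.15. Cox4i1 and Ndufb7 (0.041) were the members on chromosome 8, where Mmp15 lies, 193 and 129 measured genes away from it.

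Of the 5 paralogs of restricted expression, 4 had a mean log2 value below the median of all genes, 6.49. Cox6a2, the heart and skeletal muscle form of subunit VIa, had 5.65 and 5.79 against 5.64 and 5.69, with its highest value in knockout 2. The 20 skeletal muscle markers, Cox6a2 among them, were on average also highest in knockout 2, with mean log2 values of 5.17 and 5.74 against 5.32 and 5.21. The part of muscle in the respiratory chain values was not tested. Cox4i2, the form of subunit IV known from lung, had 5.04 and 5.09 against 5.003 and 4.95 (0.088, limma adjusted p = 0.819). Cox6b2, known from testis, had 8.17 and 7.68 against 7.64 and 7.77 (0.22, SE 0.174, limma adjusted p = 0.821), high in knockout 1 alone, while its common form Cox6b1 had 12.82 and 12.67 against 12.69 and 12.63. Cox7b2 (3.31 and 3.39 against 3.41 and 3.41) and Cox8c (6.05 and 6.02 against 6.17 and 6.07), both also known from testis, were lower in both knockouts by less than the 95% intervals of their fold changes. Cox8a, the common form of subunit VIII, had 11.80 and 11.78 against 11.77 and 11.82, a fold change of -0.0026. Cox7a2 had 12.17 and 12.05 against 12.09 and 12.09 (0.023). Cox7a2l, a gene linked to supercomplexes of the chain, had 10.71 and 10.68 against 10.66 and 10.91 (-0.094, limma adjusted p = 0.883), where only wild type 2 was high. Its 3 probe sets gave -0.11 to -0.094. The pair left out by the rule differed more: Cox7a1 had 11.54 and 11.14 against 10.56 and 10.47 (0.82, limma adjusted p = 0.651) and Cox8b 12.30 and 12.05 against 11.87 and 11.89 (0.29, limma adjusted p = 0.701), both with knockout 1 highest.

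Complex V, the ATP synthase, had the lowest median, 0.030, with 11 of 17 members above 0, and its members went both ways. The c subunit, which forms the rotating ring in the membrane, is encoded by 3 genes, Atp5g1, Atp5g2 and Atp5g3, whose mature proteins are the same and which differ in the leader peptide that is cut off on import. In each of the 3 both knockouts lay below both wild types, as in 19.4% of all genes. Atp5g1 had log2 values of 10.08 and 10.16 against 10.42 and 10.47. The difference of -0.32 corresponds to a 1.25-fold lower level (SE 0.070, 95% interval -0.50 to -0.14, unadjusted p = 0.00587, limma adjusted p = 0.693). The second probe set of Atp5g1 was dim, with log2 values of 3.25 to 3.45, and gave 0.041, so that the mean of both probe sets differed by -0.14 (limma adjusted p = 0.736; the alternatives tried gave 0.447 to 0.979). Without knockout 1 Atp5g1 still differed by -0.28, against the direction of most members. Atp5g2 had 11.26 and 11.14 against 11.32 and 11.40 (-0.155, SE 0.078, limma adjusted p = 0.747), and here the lower value was in knockout 2. Atp5g3 had 12.35 and 12.38 against 12.41 and 12.40 (-0.041, limma adjusted p = 0.932), a difference smaller than its SE of 0.063.

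**Figure D3:**
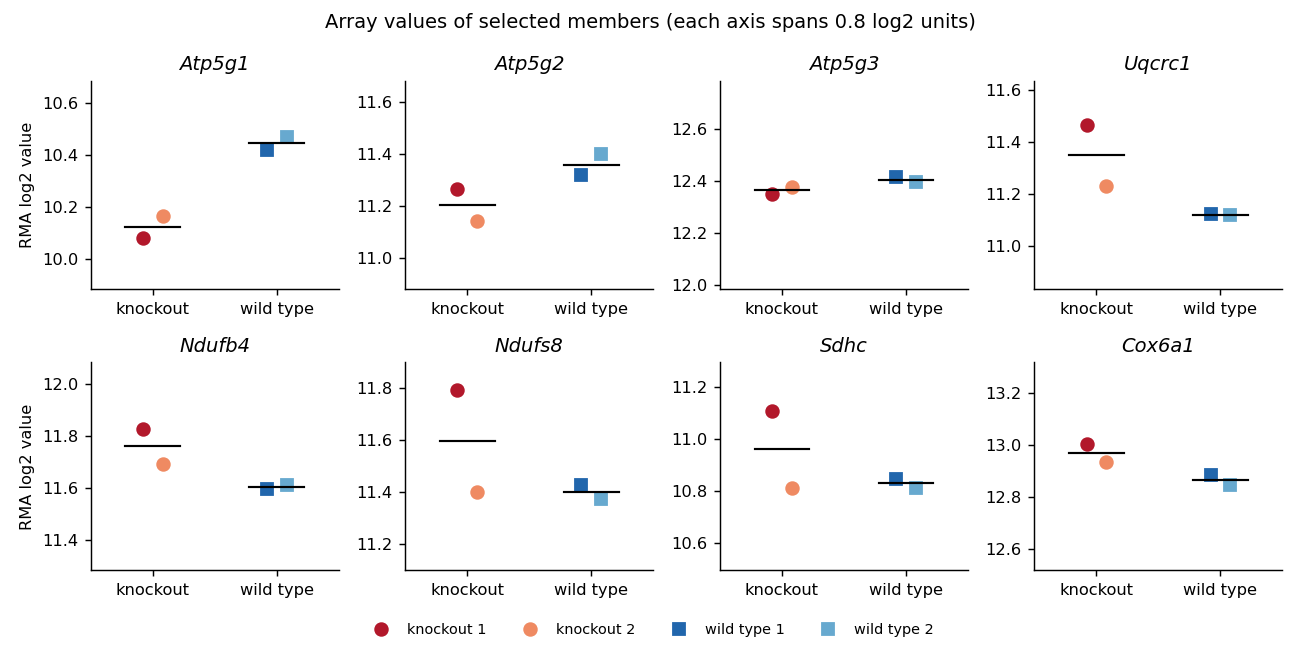
RMA log2 values (y axis, each panel spanning the same range of log2 units) of 8 members in the 4 arrays, knockouts as circles and wild types as squares, with bars for the mean of each genotype. Atp5g1 is lower in both knockouts (10.08 and 10.16 against 10.42 and 10.47), while Ndufs8 and Sdhc are high in knockout 1 only.

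The promoters of the c subunit genes are shown because these genes lay on the other side of 0 from most members, with those of Uqcrc1 and Ndufb4 as members of higher level in both knockouts. Each line is the stretch of 250 bases before an annotated start site, 5′ to 3′ on the gene's strand, from RefSeq on GRCm38.p6: chr11:96075632-96075881 (minus strand) for Atp5g1, chr15:102671048-102671297 (minus) for Atp5g2, chr2:73911327-73911576 (minus) for Atp5g3, chr9:108936398-108936647 (plus) for Uqcrc1 and chr16:37654369-37654618 (minus) for Ndufb4. Capitals mark matches, on either strand and wholly inside the stretch, to the binding motifs of factors known to act on respiratory chain genes: NRF1 (GCGC, any base, then TGCGC), GABPA (CCGGAAGT), YY1 (AAGATGGCG), the estrogen-related receptor ERRA (TCAAGGTCA) and SP1 (GGGCGG).
Atp5g1: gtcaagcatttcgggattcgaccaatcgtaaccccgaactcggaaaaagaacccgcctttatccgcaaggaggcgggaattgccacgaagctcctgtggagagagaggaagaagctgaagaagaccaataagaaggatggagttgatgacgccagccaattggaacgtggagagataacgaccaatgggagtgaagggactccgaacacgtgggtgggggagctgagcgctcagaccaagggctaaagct
Atp5g2: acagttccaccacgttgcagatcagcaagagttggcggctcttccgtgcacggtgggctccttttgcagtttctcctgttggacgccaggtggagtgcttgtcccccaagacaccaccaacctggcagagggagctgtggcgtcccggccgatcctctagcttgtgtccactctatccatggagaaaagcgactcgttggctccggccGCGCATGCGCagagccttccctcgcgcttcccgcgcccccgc
Atp5g3: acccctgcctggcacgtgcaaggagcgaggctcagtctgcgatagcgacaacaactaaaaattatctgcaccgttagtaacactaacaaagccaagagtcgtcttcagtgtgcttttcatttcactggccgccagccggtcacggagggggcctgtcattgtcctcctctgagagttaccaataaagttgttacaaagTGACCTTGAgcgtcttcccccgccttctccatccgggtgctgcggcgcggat
Uqcrc1: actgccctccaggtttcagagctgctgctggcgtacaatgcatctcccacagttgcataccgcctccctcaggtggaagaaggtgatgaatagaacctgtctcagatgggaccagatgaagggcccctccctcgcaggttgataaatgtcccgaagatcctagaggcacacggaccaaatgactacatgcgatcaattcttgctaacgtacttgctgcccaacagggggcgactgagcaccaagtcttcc
Ndufb4: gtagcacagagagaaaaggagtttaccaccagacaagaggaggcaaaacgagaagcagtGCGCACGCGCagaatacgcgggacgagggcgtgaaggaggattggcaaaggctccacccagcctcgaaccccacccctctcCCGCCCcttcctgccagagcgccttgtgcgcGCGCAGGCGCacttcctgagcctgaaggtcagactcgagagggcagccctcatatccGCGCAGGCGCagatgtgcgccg
Atp5g1 held none of the 5 motifs in its window of 300 bases, which also covers 50 bases after the start. Atp5g2 held an NRF1 match 42 bases before the start and an SP1 match that ran over the start and so is not in capitals. Ndufb4 held 3 NRF1 matches and an SP1 match. Atp5g3 held an ERRA match 52 bases before the start and an NRF1 match after it, and both NRF1 matches of Uqcrc1 lay after the start. Promoter windows were found for 62 of the 78 members (67 windows). NRF1 matches were in 25.4% of these windows and in 6.38% of the 21262 windows of protein-coding genes, YY1 matches in 10.4% against 1.83%, GABPA in 5.97% against 5.15%, ERRA in 2.99% against 0.334% and SP1 in 41.8% against 46.2%. Over the 32851 windows of all genes the shares were 4.603% for NRF1, 1.40% for YY1, 3.89% for GABPA, 0.423% for ERRA and 35.7% for SP1. The mean GC content was 58.0% in members and 56.2% in protein-coding genes. Each motif was counted on its own, whether or not it overlapped another, and a match is one of letters, not a bound site.

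The rest of complex V was mostly slightly above 0: without the c subunit genes the median was 0.044 (11 of 14 above 0), and 0.00048 without knockout 1. Of the catalytic F1 part, Atp5b, the beta subunit, had 12.27 and 12.23 against 12.22 and 12.15, Atp5a1, the alpha subunit, had a fold change of 0.057, and Atp5c1, the central shaft, had -0.044. The subunits e and f of the membrane part were higher in both knockouts: Atp5k had 12.04 and 11.98 against 11.92 and 11.86 (0.12, limma adjusted p = 0.764), and Atp5j2 12.60 and 12.49 against 12.46 and 12.42 (0.107, limma adjusted p = 0.795). Atp5md, a small subunit linked to dimers of the enzyme, had 0.12. Atp5h, of the peripheral stalk, had 12.48 and 12.39 against 12.37 and 12.39. Atp5e and Atp5l differed by 0.00059 and -0.0020, with 95% intervals of -0.16 to 0.16 for both.

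Most members that had several probe sets gave one answer. In 39 members with more than 1 probe set, 55 of 59 further probe sets had the sign of the brightest, among them all 44 with a level above the median of all genes, and only Atp5g1 had probe sets of opposite sign that differed by over 0.3. For 13 members the probe set used is of a type (x_at or s_at) that can bind related transcripts, among them Atp5k, Atp5c1, Cox5b and Uqcrq.

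Knockout 1 also had the highest median deviation in the other mitochondrial lists, while the order of the remaining arrays varied from list to list. Of 13 complex I assembly factors, which build the complex but are not part of it, 12 lay above 0 (median 0.19) and 11 were highest in knockout 1; 0 passed the threshold, and limma gave 4 of them, all higher, an unadjusted p under 0.05. Tmem126b had 5.38 and 5.35 against 5.12 and 5.02 (0.30, SE 0.071, limma adjusted p = 0.693), and Ndufaf3 9.01 and 8.92 against 8.75 and 8.76 (0.21). Without knockout 1 the median of this list was 0.093. Of 27 assembly factors of the other complexes 20 lay above 0 (median 0.0999, and -0.0027 without knockout 1), with Atpaf2, a chaperone of F1, at 0.24 and Coa7, for cytochrome c oxidase, at 0.30. Electron carriers and coenzyme Q genes had 10 of 13 above 0 (median 0.18, 0.021 without knockout 1). Coq10b, a coenzyme Q binding protein, had 8.26 and 8.32 against 7.80 and 7.25 (0.76, SE 0.186, limma adjusted p = 0.693), and its paralog Coq10a had 0.30. The citric acid cycle had 15 of 17 above 0 (median 0.088, 0.018 without knockout 1). Ogdh and Suclg1, enzymes of consecutive steps, had 0.35 and 0.38, and Pcx, which feeds the cycle from pyruvate, was at -0.35. In fatty acid oxidation 13 of 16 lay above 0 (median 0.17, 0.075 without knockout 1), with Cpt1b, the muscle and brown fat carnitine palmitoyltransferase, at 0.67 and Acads at 0.22. Of 17 regulators of mitochondrial biogenesis 13 lay above 0 (median 0.066), with the nuclear receptor Ppara at 0.84, the DNA polymerase subunit Polg2 at -0.35 and the factors Nrf1 and Gabpa at 0.066 and 0.019. Carriers and porins were split, with 4 of 8 above 0 (median 0.039), Slc25a4 at 0.0999 and Vdac2 at 0.104. In these lists 0 genes passed the threshold by limma. At an unadjusted p under 0.05, where 3.63% of all genes were higher and 3.38% lower, fatty acid oxidation held 5 higher genes of 16, the citric acid cycle 4 higher and 1 lower of 17, the assembly factors of complexes II to V 3 higher of 27, and the electron carriers 2 higher of 13. The biogenesis regulators held 1 higher and 1 lower of 17, and the carriers and porins 0 of 8.

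Thermogenic fat markers were higher in both knockouts, most in knockout 1. Each of the 10 measured (of 12 listed) had a positive fold change, the median being 0.71, and their mean log2 value was 9.55 and 9.15 against 8.64 and 8.64. Ucp1 had 11.73 and 11.35 against 10.27 and 9.53, and no marker was near the bottom of the array except Elovl3, with a mean of 4.55. Without knockout 1 the median of the list was 0.46, beside 0.0060 for the respiratory chain. Cox7a1 and Cox8b, left out of the members, stand in this list, and so do Ppara and Cpt1b. With Cox7a1 and Cox8b taken out, the median of the list was 0.71, and 0.46 without knockout 1. Macrophage markers were lowest in knockout 1 in 9 of 11 genes; 0 of 11 fold changes were positive, with mean log2 values of 8.53 and 8.70 against 8.76 and 8.75. Mammary luminal markers had 1 of 11 fold changes above 0 (7.75 and 7.61 against 7.88 and 7.88) and basal markers 0 of 9 (7.79 and 7.66 against 7.96 and 8.03). Endothelial markers had 8 of 9 above 0 and were highest in knockout 2 in 8 (9.01 and 9.19 against 8.97 and 8.88), and white adipocyte markers had 5 of 8 above 0 (11.49 and 11.60 against 11.36 and 11.09). The median fold change of the white adipocyte markers was 0.052 and their highest 2.19, so a single gene weighed on their means. The part of these cell types in the respiratory chain result was not tested.

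**Figure D4:**
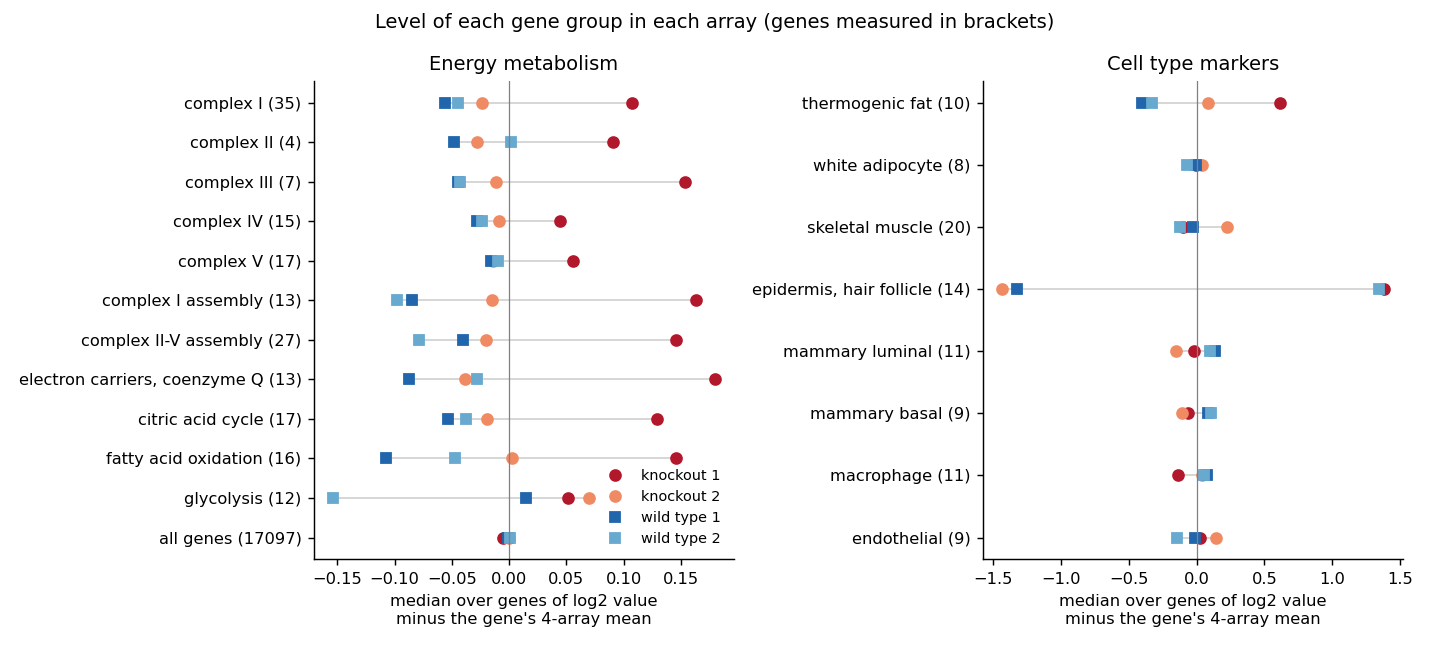
Median over genes of each array's log2 deviation from the gene's mean over the 4 arrays (x axis, log2 units; circles knockouts, squares wild types), for energy metabolism groups (left) and cell type markers (right, on a wider scale); numbers in brackets are genes measured. Knockout 1 is highest in the 5 complexes and in the assembly, electron carrier, citric acid cycle and fatty acid oxidation groups, as in thermogenic fat (0.62), whereas epidermis and hair follicle genes pair knockout 1 (1.38) with wild type 2 (1.34).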

How the data were processed

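Expression was measured on 4 arrays. Per the submitters' processing notes the authors used affy and RMA, and the deposited file holds log2 values, 1 for each probe set and array; settings and versions were not given in the sources used here. The method forces one distribution of intensities on the arrays. It can hide a shift common to most genes and compress the change of a very bright gene. The file held 45141 probe sets, of which 28898 had 1 gene symbol in the platform annotation used and 551 had several (none named). The probe set of highest mean stood for each gene, which gave 17097 genes, and all 78 members matched RefSeq (GRCm38.p6) by gene ID.

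Genotypes were compared with limma 3.58.1 (lmFit, then eBayes; R 4.3.3). The test was two-sided, used all 4 arrays and had no covariate and no filter (2 residual and 2.96 prior degrees of freedom). Benjamini-Hochberg adjustment ran over all genes, with a threshold of 0.05. With 2 arrays on each side, no exact permutation test can reach a p below 0.333. For arrays their number, not a depth, limits the precision. Errors are moderated standard errors. Complexes and lists were described by counts and medians, without a test. The members and lists were chosen with earlier results of these data known. Within each complex the text names the 3 members of smallest p, the highest and lowest fold change and the 2 brightest, then the paralogs of complex IV and the c subunit and 2 genes of smallest p per list; others were named after their values were seen. The fit was tested on simulated data with independent genes and with changes larger than that of any member. That test does not cover changes of the size seen here or shifts shared by many genes of an array. Alternatives were quantile normalization, median centring, brighter genes only, the mean of or each of the probe sets, intensity trend, robust variances, the replicate number as a block and each array left out; a crossed pairing was added after the data were seen.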

Additional observations from a re-analysis of the deposited data

How the results depend on the processing

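No member passed the threshold under any of the 13 alternatives run, in which the 34 named members kept the sign of their fold change in 421 of 439 values, and the smallest adjusted p by limma was 0.447 (Atp5g1). The number of members at an unadjusted p under 0.05 by limma, 1 in the fit reported, was 2 with the mean of probe sets (6.93% of all genes), 5 of 137 with every probe set tested separately (6.82% of all probe sets) and 3 with an intensity trend (6.76% of all genes). With 1 array left out it was 1 to 7, the 7 (6 higher, 1 lower; 8.97% of members against 6.62% of all genes) without knockout 2. Under the other scalings and probe set rules the median of the members stayed between 0.060 and 0.076. With 1 array left out it ran from 0.0060 to 0.12, with 0.021 to 0.151 for complex I, 0.0026 to 0.121 for complex II, 0.052 to 0.218 for complex III, -0.010 to 0.059 for complex IV and -0.012 to 0.080 for complex V. The lowest value came in each case without knockout 1 and the highest without knockout 2. A lone array left in a genotype was assumed to have the spread of the other genotype. Knockout 1 was highest in 60 to 62 members under the scaling and probe set alternatives. With the replicate number as a block 0 members passed, 1 had an unadjusted p under 0.05 by limma and 0 of all genes passed. Over genes, the deviations of same-numbered arrays from their genotype's mean correlated at -0.480. With 2 arrays per genotype those deviations are equal and opposite, so this single value cannot tell whether the numbers pair the arrays. In the crossed pairing, chosen after seeing the data, 0 members and 0 of all genes passed.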

Other observations

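Glycolysis, which makes ATP in the cytosol, was listed beside the respiratory chain. Fold changes were positive in 10 of 12 measured enzymes (median 0.14), against 48.8% of all genes. By limma 0 passed the threshold, while 3 had an unadjusted p under 0.05, all higher, where 3.63% of all genes were. Pfkm, the muscle type of phosphofructokinase, had log2 values of 7.92 and 7.80 (knockout 1, knockout 2) against 7.52 and 7.54 for the wild types (0.33, SE 0.074, limma adjusted p = 0.693). Pkm, pyruvate kinase, had 9.51 and 9.40 against 9.16 and 9.01 (0.37, SE 0.085, limma adjusted p = 0.693). The array order differed from that of the respiratory chain: the median deviation was 0.051 in knockout 1, 0.070 in knockout 2, 0.014 in wild type 1 and -0.15 in wild type 2, and without knockout 1 the median was 0.15. Whether glycolysis and respiratory chain genes differ in this was not tested.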
